A study of Homo sapiens with 4 samples.

Results

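The genes described are 10 S100 calcium-binding proteins, S100A2, S100A4, S100A6, S100A7, S100A8, S100A9, S100A10, S100A11, S100A14 and S100P, listed by name out of the 18417 genes measured. The study lowered KLF7, a zinc finger transcription factor, with a pool of siRNA in HCE cells, which the labels describe as an undifferentiated cell line. The groups were 2 arrays of cells given siKLF7 and 2 arrays of cells given a scramble control pool, each pool at 20 nM, with 100000 cells plated per well and collection 48 hours after transfection. Both groups came from the same HCE line, and the study belongs to work on the corneal epithelium. Separate cultures behind the arrays of a group are not stated in the labels, and the p-values therefore cover the spread among these arrays alone, which could be technical.

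S100 proteins are small proteins with a pair of EF-hand motifs, the loops that bind calcium, and most of them work as dimers. Inside the cell, calcium exposes a surface with which they hold partners such as annexins or myosin. Some are also released and act outside the cell, where S100A7, S100A8 and S100A9 are known as alarmins that draw leukocytes and withhold zinc or manganese from microbes. In stratified epithelia, including that of the ocular surface, several of them change with differentiation and inflammation.

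In these data the 10 genes fell into 2 kinds. S100A4, S100A7, S100A8, S100A9 and S100P differed by over 1 on the log2 scale between the scramble control arrays, and S100A2, S100A6, S100A10, S100A11 and S100A14 did not. Of all genes, 5.29% differed by over 1 between these arrays. Scramble control replicate 1 stood apart over the whole array: its correlation with the other arrays across genes was 0.934 to 0.938, against 0.990 to 0.994 among the other 3. Comparisons were therefore made against both controls, against scramble control replicate 2 alone and against scramble control replicate 1 alone. Outside the 10 genes, not every gene named is given with all of them. The fits with 1 control took their spread from the siKLF7 arrays, so their p-values and intervals do not cover the spread between the controls. S100A7 and S100P fell against scramble control replicate 2, by 1.57 and 1.04 (log2), and rose against scramble control replicate 1, by 0.72 and 3.39.

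The sequences before the transcription starts are shown because the genes of these 2 kinds also differed there, in whether they held TATAAA. Each line is the 250 bases before the start, 5′ to 3′ on the gene's strand, from RefSeq with build GRCh38.p14, and capitals mark CACCC or its complement GGGTG, a motif that KLF factors are known to bind, and TATAAA. S100A7 (chr1:153460652-153460901, minus strand), S100P (chr4:6693628-6693877, plus strand) and S100A4 (chr1:153545807-153546056, minus strand) stand for the genes whose controls differed, S100A10 (chr1:151993860-151994109, minus strand) and S100A11 (chr1:152037005-152037254, minus strand) for those whose controls did not, and S100A7A (chr1:153416270-153416519, plus strand) is the close relative of S100A7.
S100A7: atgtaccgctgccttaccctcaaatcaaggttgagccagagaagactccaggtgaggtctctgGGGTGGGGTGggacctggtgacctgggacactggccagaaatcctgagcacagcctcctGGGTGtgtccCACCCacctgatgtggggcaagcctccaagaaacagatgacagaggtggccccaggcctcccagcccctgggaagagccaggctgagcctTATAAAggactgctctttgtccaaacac
S100A7A: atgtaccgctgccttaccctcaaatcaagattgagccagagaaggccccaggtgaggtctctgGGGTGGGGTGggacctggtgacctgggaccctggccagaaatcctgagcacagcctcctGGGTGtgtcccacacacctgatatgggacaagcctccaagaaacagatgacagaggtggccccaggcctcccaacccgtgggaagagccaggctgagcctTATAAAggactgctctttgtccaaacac
S100P: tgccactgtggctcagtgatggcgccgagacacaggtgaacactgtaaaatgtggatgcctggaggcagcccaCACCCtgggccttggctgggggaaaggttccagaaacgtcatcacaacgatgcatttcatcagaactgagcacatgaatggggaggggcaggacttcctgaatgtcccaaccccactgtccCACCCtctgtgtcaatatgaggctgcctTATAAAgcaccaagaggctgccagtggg
S100A4: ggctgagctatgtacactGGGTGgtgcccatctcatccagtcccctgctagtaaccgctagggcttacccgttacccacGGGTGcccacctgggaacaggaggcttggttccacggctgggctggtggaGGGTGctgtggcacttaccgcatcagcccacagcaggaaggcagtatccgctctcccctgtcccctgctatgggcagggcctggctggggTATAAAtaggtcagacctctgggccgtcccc
S100A10: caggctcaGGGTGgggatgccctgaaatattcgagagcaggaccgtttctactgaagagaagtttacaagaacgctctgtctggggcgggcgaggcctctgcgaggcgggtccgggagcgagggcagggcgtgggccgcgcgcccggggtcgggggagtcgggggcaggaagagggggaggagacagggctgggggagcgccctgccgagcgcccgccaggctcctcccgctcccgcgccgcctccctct
S100A11: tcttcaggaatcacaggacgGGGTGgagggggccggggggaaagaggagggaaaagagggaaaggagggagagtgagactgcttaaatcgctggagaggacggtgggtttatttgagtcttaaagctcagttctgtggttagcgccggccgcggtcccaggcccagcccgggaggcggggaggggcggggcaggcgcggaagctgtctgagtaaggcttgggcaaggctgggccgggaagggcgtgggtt

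Both strands were searched, also for GGGCGG, and matches of the motifs were allowed to overlap. TATAAA was found before at least 1 listed start of 5 of the 5 genes whose controls differed by over 1 (log2). Of the other 5 genes, 0 held it. Counted by window, TATAAA was found in 6 of the 13 windows of the 10 genes and in 10.7% of all 35116 windows of the same length. It began at position -28 from the start in S100A7 and S100P, -29 in S100A9 and 1 window of S100A8, and -31 in S100A4. Among the other S100 genes with a window, 5 of 9 held TATAAA. For S100A12, 1 of these, scramble control replicate 1 minus replicate 2 was -2.50 (log2). For the others, S100A13, S100A7A, S100G and S100Z, it was -0.03, -0.57, -0.20 and 0.11. The division thus did not hold over the whole family. CACCC was found for 9 of the 10 genes, 11 of their 13 windows, and in 54.7% of all windows. S100A7 had 4 matches, at -187, -182, -128 and -118, S100P had 2, at -177 and -56, and S100A9 had 0. GGGCGG was found for 4 of the 10 genes and in 42.6% of all windows. The S100A7 and S100A7A windows shared 241 of 250 bases, or 96.4%.

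The targeted gene was read first. The KLF7 signal was 1492 and 1122 in the siKLF7 arrays, against 4649 and 2911 in scramble control replicates 1 and 2. The siKLF7 arrays were the lower pair, with no overlap. The log2 difference was -1.50 (SE 0.28, limma adjusted p = 0.64) with 4 arrays, -1.16 (SE 0.13, limma adjusted p = 1.2e-09) against scramble control replicate 2 and -1.83 (SE 0.13, limma adjusted p = 5e-23) against scramble control replicate 1.

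S100A7, or psoriasin, is a secreted antimicrobial and chemotactic protein of keratinocytes. Its signal was 225 and 159 in the siKLF7 arrays, against 109 in scramble control replicate 1 and 594 in scramble control replicate 2. The siKLF7 values fell between the controls, nearer to replicate 1. The mean was 192 ± 46.7 in siKLF7 arrays and 352 ± 343 in scramble control arrays (SD, n = 2 each). The gene fell against scramble control replicate 2, to 33.7% of it (log2 -1.57, SE 0.17, limma adjusted p = 6.8e-11). It rose 1.65-fold over scramble control replicate 1 (log2 0.72, SE 0.17, limma adjusted p = 0.00033). With 4 arrays the difference was -0.43 (SE 0.78, adjusted p = 0.83), with a 95% interval of -2.47 to 1.62. The siKLF7 arrays differed from each other by 0.46 (log2), the widest gap of that pair among the 10 genes. In bulk RNA, fewer cells with a transcript and less of it per cell cannot be told apart.

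S100P, a partner of ezrin and a ligand of the receptor AGER, gave the widest spread. Its signal was 493 and 505 in the siKLF7 arrays, against 33.0 in scramble control replicate 1 and 1040.0 in scramble control replicate 2. Both siKLF7 values again lay between the controls, and they differed from each other by 0.04 (log2). The mean was 499 ± 8.98 in siKLF7 arrays and 537 ± 712 in scramble control arrays (SD, n = 2 each). S100P fell to 48.8% of scramble control replicate 2 (log2 -1.04, SE 0.16, limma adjusted p = 3.9e-06) and rose 10.5-fold over scramble control replicate 1 (log2 3.39, SE 0.16, limma adjusted p = 1.1e-33). With 4 arrays the difference was 1.18 (SE 1.46, adjusted p = 0.75), a sign that rested on scramble control replicate 1. Because the signal in that array was low beside the pseudocount of 16 added before the logarithm, the difference from it ranged from 3.03 with a pseudocount of 32 to 3.88 with a pseudocount of 1.

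S100A4, which binds the heavy chain of non-muscle myosin, was low in scramble control replicate 1 only. Its signal was 1089 and 1308 in the siKLF7 arrays, against 110 in scramble control replicate 1 and 966 in scramble control replicate 2. The siKLF7 pair was above both controls, narrowly so for scramble control replicate 2. The gene rose against scramble control replicate 1 (log2 3.27, SE 0.16, limma adjusted p = 2.5e-32, 9.62-fold). The difference from scramble control replicate 2 was 0.30 (SE 0.15, limma adjusted p = 0.42), with an interval of 0.01 to 0.59 before adjustment over all genes. With 4 arrays it was 1.78 (SE 0.99, adjusted p = 0.64).

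S100A8 and S100A9 form calprotectin, the heterodimer that binds zinc and manganese and signals through TLR4 and AGER. S100A8 signal was 8796 and 8462 in the siKLF7 arrays, against 3749 in scramble control replicate 1 and 8527 in scramble control replicate 2. S100A9 signal was 4499 and 4854 in the siKLF7 arrays, against 1584 in scramble control replicate 1 and 5218 in scramble control replicate 2. Scramble control replicate 1 was the low array for both subunits, while the other 3 arrays lay close together. Both rose against scramble control replicate 1, S100A8 by 1.20 (SE 0.07, limma adjusted p = 2.1e-26) and S100A9 by 1.55 (SE 0.10, limma adjusted p = 9.4e-25). The differences from scramble control replicate 2 were 0.02 for S100A8 (95% interval -0.12 to 0.15, adjusted p = 0.94) and -0.16 for S100A9 (-0.33 to 0.02, adjusted p = 0.50). With 4 arrays S100A8 stood at 0.61 (SE 0.40) and S100A9 at 0.70 (SE 0.57), and neither passed (adjusted p = 0.64 and 0.66).

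S100A10 and S100A11 are partners of annexins, and S100A10 is unusual in the family because its EF-hands no longer bind calcium. S100A10 signal was 10653 and 9415 in the siKLF7 arrays, against 9298 in scramble control replicate 1 and 10264 in scramble control replicate 2. S100A11 signal was 8180.3 and 7748 in the siKLF7 arrays, against 7492 in scramble control replicate 1 and 8163 in scramble control replicate 2. The groups overlapped for both genes. With 4 arrays S100A10 differed by 0.04 (95% interval -0.24 to 0.31), or -0.025 with quantile normalization, and S100A11 by 0.03 (-0.22 to 0.27). The intervals against scramble control replicate 2 were -0.16 to 0.09 for S100A10 and -0.17 to 0.10 for S100A11. Against scramble control replicate 1 the differences were 0.11 for S100A10 and 0.09 for S100A11. RefSeq lists 10 pseudogenes named after S100A11 and 2 named after S100A7, and an array may not separate such copies.

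S100A6, or calcyclin, which binds CACYBP, had a signal of 1003 and 993 in the siKLF7 arrays, against 805 in scramble control replicate 1 and 910.2 in scramble control replicate 2. Both siKLF7 arrays lay above both controls, and they differed from each other by 0.02 (log2). The difference was 0.22 (SE 0.14, limma adjusted p = 0.64) with 4 arrays, 0.13 (SE 0.15, limma adjusted p = 0.77) against scramble control replicate 2 and 0.30 (SE 0.15, limma adjusted p = 0.13) against scramble control replicate 1. None of the 3 passed.

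S100A2, a mostly nuclear protein of basal keratinocytes, had a signal of 3720.4 and 3946 in the siKLF7 arrays, against 3553 in scramble control replicate 1 and 3454 in scramble control replicate 2. S100A14, a protein of epithelial cells, had a signal of 3672 and 4702 in the siKLF7 arrays, against 3499 in scramble control replicate 1 and 3569 in scramble control replicate 2. For both genes the siKLF7 arrays lay above both controls by small margins, and for S100A14 the excess came mostly from siKLF7 replicate 2. S100A2 differed by 0.13 (SE 0.11, adjusted p = 0.66) with 4 arrays and 0.15 (SE 0.10, adjusted p = 0.58) against scramble control replicate 2. S100A14 differed by 0.23 (SE 0.15, adjusted p = 0.64) and 0.22 (SE 0.10, adjusted p = 0.38). S100A14 stood at 0.25 against scramble control replicate 1, just outside the threshold (adjusted p = 0.051), and S100A2 at 0.11 (adjusted p = 0.43).

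**Figure D1:**
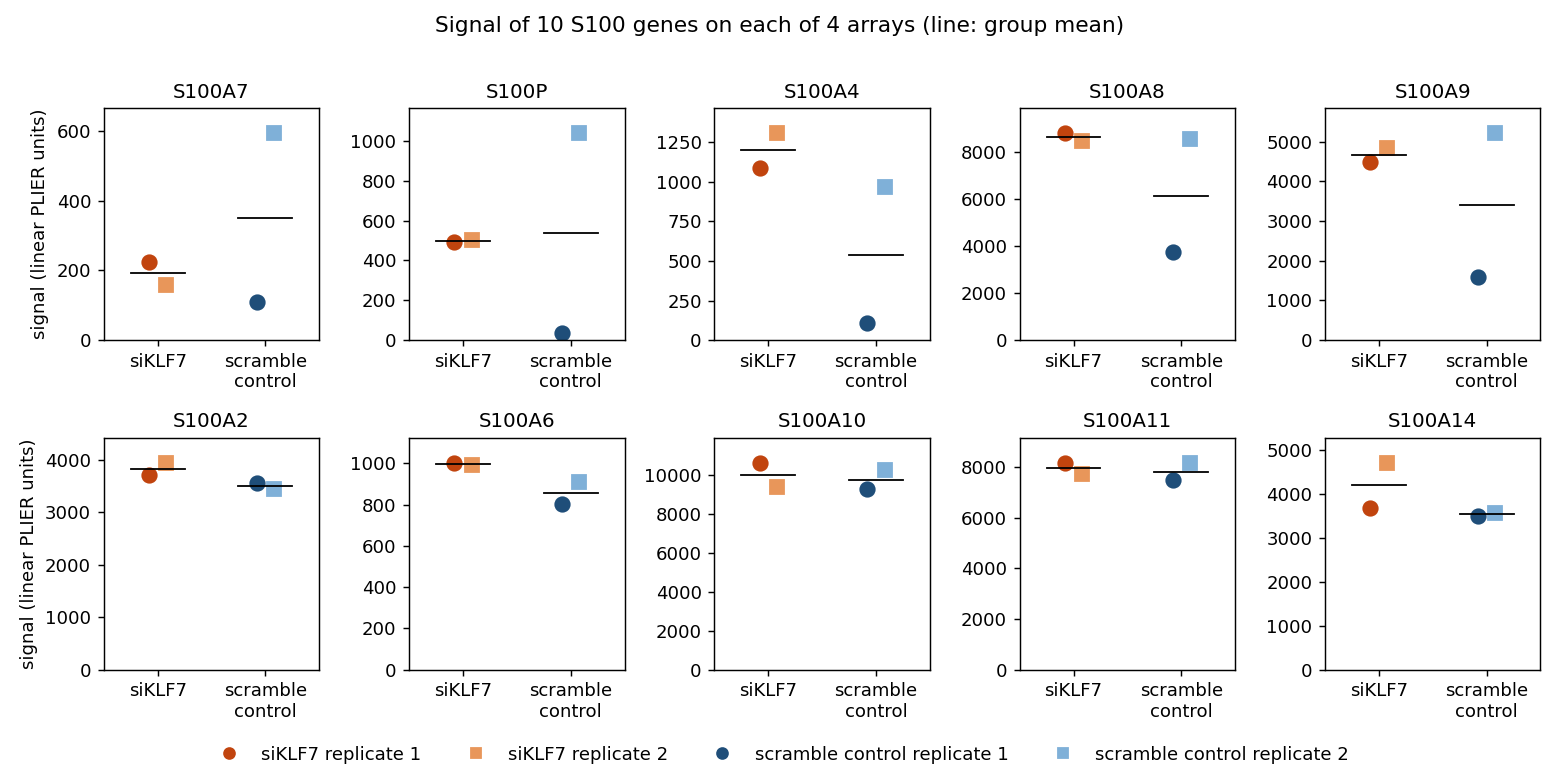
Deposited signal (linear PLIER units, each axis starting at 0) of the 10 S100 genes on each siKLF7 and scramble control array, with a line at each group mean. The upper row holds the 5 genes whose control arrays differed by over 1 on the log2 scale, where S100A7 and S100P of the siKLF7 arrays lie between the controls, and the lower row holds the other 5.

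With 4 arrays 0 of the 10 genes passed in limma, as did 0% of all genes, and 0 of the 10 had an unadjusted p under 0.05, against 5.8% of all genes. An exact permutation test of 1 gene with 2 arrays against 2 cannot go below p = 0.333 (two-sided), so it cannot pass for any of them. Both siKLF7 arrays lay above both controls for 4 of the 10 genes, S100A2, S100A4, S100A6 and S100A14, against 16.3% of all genes, and below both for 0, against 28.9% of all genes, 45.2% in either direction. Taking scramble control replicate 2 alone, 0 rose and 2 fell, against 0.885% and 0.69% of all genes, 1.57% in either direction. The unadjusted p was under 0.05 there for 11.3% of all genes. Both siKLF7 arrays lay above that control for 4 of the 10 and below it for 3, against 29.7% and 44.6% of all genes. Taking scramble control replicate 1 alone, 5 rose and 0 fell, against 13.4% of all genes in each direction and 26.8% in either, with an unadjusted p under 0.05 for 36.2% of all genes. Both siKLF7 arrays lay above that control for 10 of the 10, against 35.2% of all genes, while 48.2% of all genes lay below it. The median log2 difference of the 10 genes was 0.23 with 4 arrays, -0.01 against scramble control replicate 2 and 0.51 against scramble control replicate 1, beside -0.05, -0.04 and -0.06 for all genes.

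**Figure D2:**
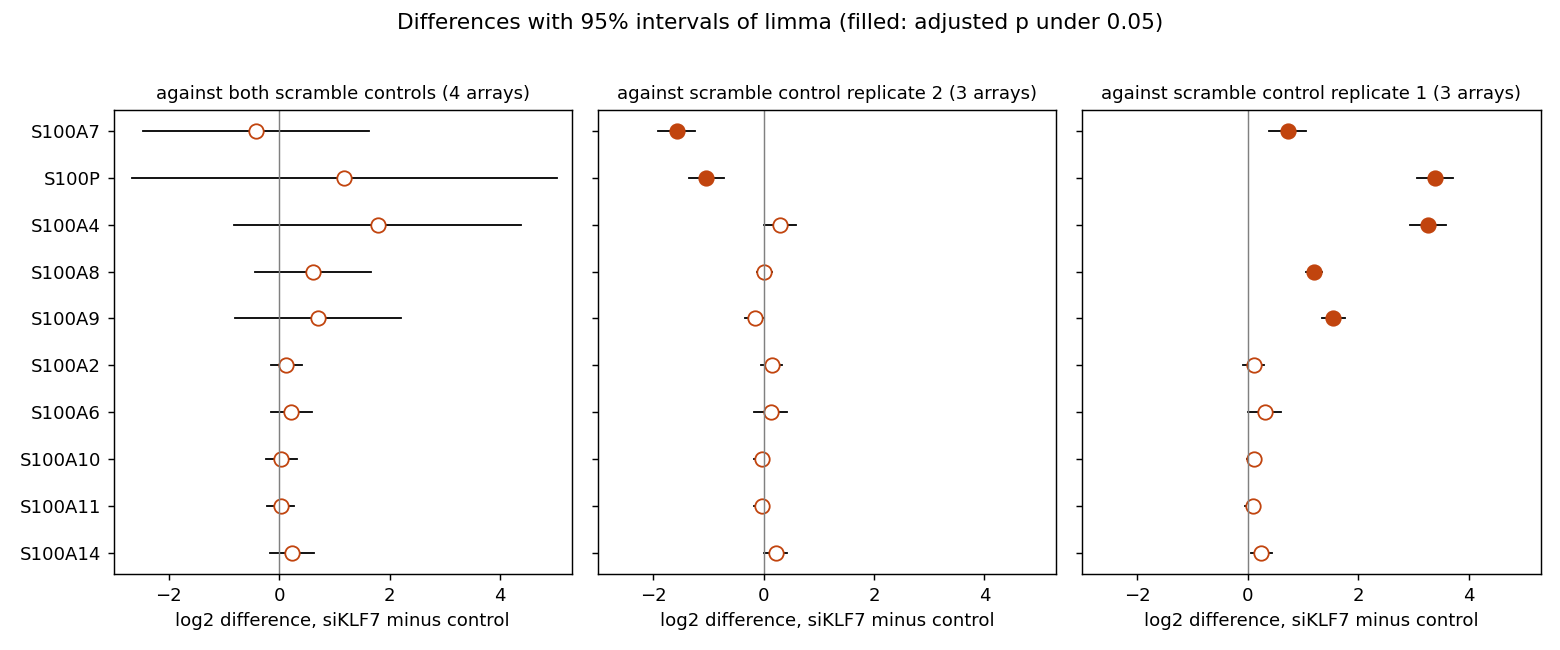
Log2 difference (siKLF7 minus control) of the 10 S100 genes with 95% intervals from limma, against both controls, scramble control replicate 2 and scramble control replicate 1, with filled points for an adjusted p under 0.05. S100A7 and S100P are filled on opposite sides of 0 against the 2 controls taken one at a time, at -1.57 and -1.04 against replicate 2 and 0.72 and 3.39 against replicate 1, and no gene is filled with 4 arrays.

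The share of genes that stood apart in scramble control replicate 1 can be set beside this. In that array 5 of the 10 genes were at least 2-fold lower than the mean of the other 3 arrays and 0 were at least 2-fold higher, against 2.99% and 2.11% of all genes. The log2 level there minus the mean of the other 3 was -3.74 for S100P, -3.17 for S100A4, -1.60 for S100A9, -1.24 for S100A7 and -1.19 for S100A8. Between the siKLF7 arrays 0 of the 10 genes were at least 2-fold apart, against 0.076% of all genes. The widest gap among the 10 was 0.46 (log2), in S100A7.

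Of the 10 genes, 9 lie on chromosome 1 in the S100 cluster of RefSeq and S100P lies on chromosome 4. Along chromosome 1 the order of the S100 genes is S100A10, S100A11, S100A9, S100A12, S100A8, S100A7A, S100A7L2, S100A7, S100A6, S100A5, S100A4, S100A3, S100A2, S100A16, S100A14, S100A13 and S100A1. S100A9, S100A12 and S100A8 are neighbours, and all 3 were low in scramble control replicate 1. S100A4 lies apart from them, between S100A5 and S100A3, for which the control arrays differed by 0.30 and 0.01 (log2) against -2.97 for S100A4 (replicate 1 minus replicate 2). In RefSeq the S100A4 and S100A5 genes overlap, as do S100A8 and S100A7A, and an array may not separate the signals of such partners.

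**Figure D3:**
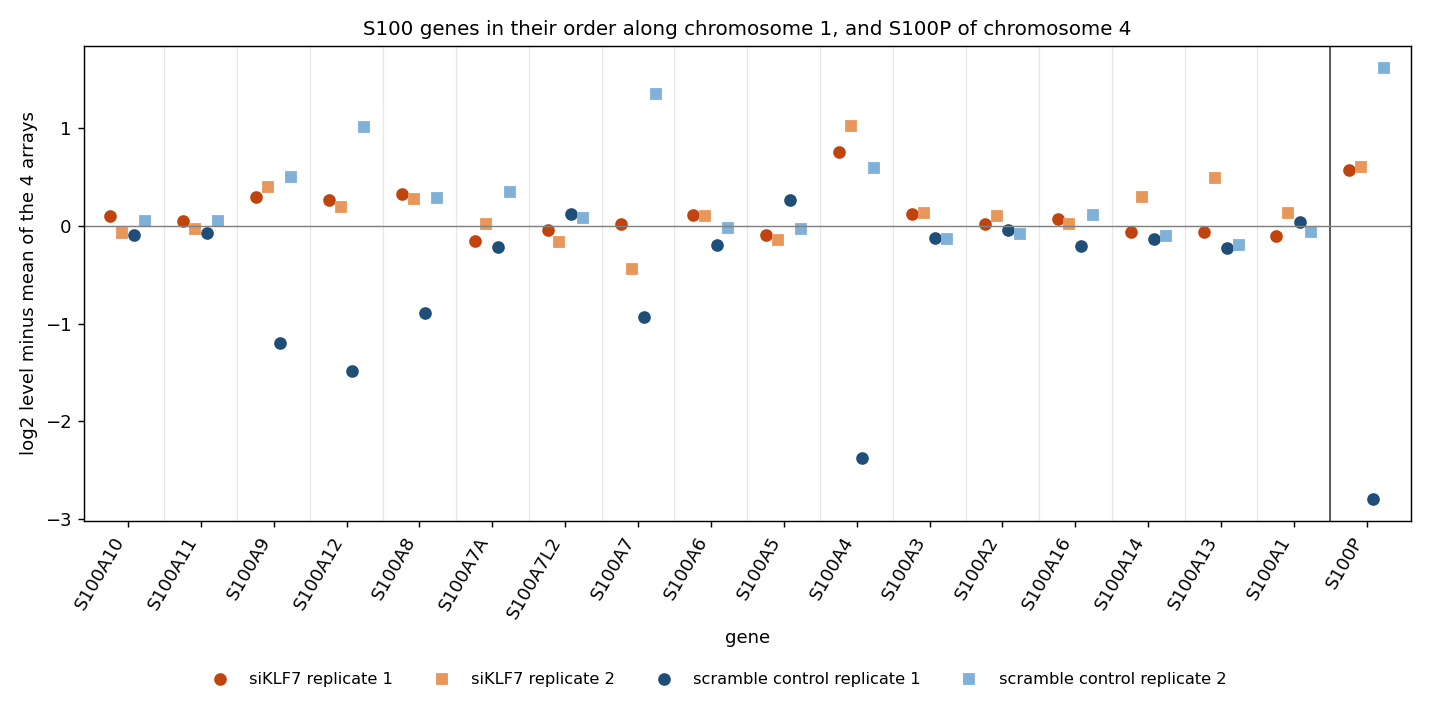
Log2 level of each S100 gene minus its mean over the 4 arrays, for the S100 genes of chromosome 1 in their order there and for S100P of chromosome 4 at the right. Scramble control replicate 1 lies lowest for S100A9, S100A12, S100A8, S100A7, S100A4 and S100P. By smaller margins it is also lowest for S100A10, S100A11, S100A7A, S100A6, S100A16, S100A14 and S100A13. S100A10, S100A11 and S100A2 stay close to 0 on all arrays.

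Over the 11 other S100 genes the median log2 difference was -0.09 against scramble control replicate 2, beside -0.04 for all genes. Against scramble control replicate 1 it was 0.07, beside -0.06. The widest difference from either control was that of S100A12, a chemotactic protein best known from neutrophils. Its signal was 663 and 629 in the siKLF7 arrays, against 185 in scramble control replicate 1 and 1122 in scramble control replicate 2. The siKLF7 arrays lay between the controls, as for S100A7 and S100P, with log2 differences of -0.78 against scramble control replicate 2 (SE 0.15, limma adjusted p = 0.00054) and 1.72 against scramble control replicate 1 (SE 0.16, limma adjusted p = 1.5e-15). With 4 arrays S100A12 stood at 0.47 (SE 0.83) and did not pass.

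S100A13 and S100A16 also rose against scramble control replicate 1, by 0.44 (limma adjusted p = 0.043) and 0.25 (limma adjusted p = 0.0095), and stood at 0.41 and -0.07 against scramble control replicate 2, where neither passed. S100A13 stood at log2 8.62 and 9.17 in the siKLF7 arrays, against 8.45 and 8.49 in scramble control replicates 1 and 2, so the siKLF7 arrays differed from each other by more than the difference from either control. S100A3, at 0.27 against scramble control replicate 2, and S100A5, at -0.09, did not pass in any comparison. The other 6 (S100A1, S100A7A, S100A7L2, S100B, S100G and S100Z) had log2 levels between 5.12 and 6.49 on every array, and none passed. S100A7A, the relative of S100A7, was given with values after they were seen. It stood at log2 5.98 and 6.16 in the siKLF7 arrays, against 5.92 and 6.49 in scramble control replicates 1 and 2. The siKLF7 arrays lay between the controls there too, over a narrow range, and probes may not fully separate the pair.

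Receptors and protein partners of S100 proteins were read from a list of 28 genes, 25 of which had a feature with 1 symbol. FABP5, a partner of S100A7, was 1 of the 3 without. With scramble control replicate 2 as the control, the widest difference among the 25 was that of CD36, a scavenger receptor for fatty acids. Its signal was 256 and 268 in the siKLF7 arrays, against 15.8 in scramble control replicate 1 and 127 in scramble control replicate 2. CD36 rose by 0.96 (log2, SE 0.16, limma adjusted p = 3.3e-05) against scramble control replicate 2 and stood at 2.04 with 4 arrays, where it did not pass. The next by p, PLAU, ALCAM and ANXA5, stood at 0.31, 0.37 and -0.24 against scramble control replicate 2 and did not pass there. Against scramble control replicate 1 their signs turned, to -0.82, -0.24 and 0.15.

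Partners of S100A10 and S100A6 were read for the same contrast. ANXA2, which pairs with S100A10, stood at log2 12.81 and 12.79 in the siKLF7 arrays, against 12.79 and 12.76 in scramble control replicates 1 and 2, a difference of 0.03 with 4 arrays. AHNAK, which binds the S100A10 and ANXA2 complex, differed by -0.11 with 4 arrays and -0.03 against scramble control replicate 2, and CACYBP by -0.32 and -0.18. None of these passed with 4 arrays or against scramble control replicate 2, while CACYBP fell by 0.46 against scramble control replicate 1 (limma adjusted p = 0.01). Among receptors of secreted S100 proteins, AGER stood at -0.27 with 4 arrays and TLR4 at -0.18, and neither passed. These 2 were named after their values were seen. Compared with scramble control replicate 1, the median log2 difference of the 25 was -0.26, beside -0.06 for all genes. With 4 arrays 0 passed (median -0.16). Both siKLF7 arrays lay above both controls for 2 of the 25 and below for 9, where 16.3% and 28.9% of all genes did so.

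Antimicrobial and alarmin genes of epithelia, with which S100A7, S100A8 and S100A9 are usually grouped, were read from a list of 18, of which 15 were measured. Compared with scramble control replicate 2, the median log2 difference over the 15 was -0.33, beside -0.04 for all genes. The differences ran from -0.98 to -0.01. LCN2, an iron-sequestering lipocalin, had a signal of 838 and 658 in the siKLF7 arrays, against 264 in scramble control replicate 1 and 1477 in scramble control replicate 2, and PI3, an elastase inhibitor, had 4942 and 4439 in the siKLF7 arrays, against 176 in scramble control replicate 1 and 7298 in scramble control replicate 2. Both genes placed the siKLF7 arrays between the controls, as S100A7, S100A12 and S100P did. LCN2 fell by 0.98 (SE 0.15, limma adjusted p = 6.3e-06) and PI3 by 0.64 (SE 0.08, limma adjusted p = 9.2e-08) against scramble control replicate 2.

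RNASE7, an antimicrobial ribonuclease, and CCL20, a chemokine, behaved otherwise, with both siKLF7 arrays below both controls. RNASE7 signal was 247 and 246 in the siKLF7 arrays, against 563 in scramble control replicate 1 and 403 in scramble control replicate 2. RNASE7 fell by 0.68 (limma adjusted p = 0.0087) against scramble control replicate 2 and by 1.14 (limma adjusted p = 1e-08) against scramble control replicate 1. The CCL20 signal was 184 and 181 in the siKLF7 arrays, against 685 in scramble control replicate 1 and 291 in scramble control replicate 2. CCL20 fell by 0.63 (limma adjusted p = 0.018) against scramble control replicate 2 and by 1.82 (limma adjusted p = 7.4e-17) against scramble control replicate 1. With 4 arrays 0 of the 15 passed, and RNASE7 stood at -0.91 and CCL20 at -1.23. Against scramble control replicate 1 the median log2 difference of the 15 was 0.19, beside -0.06 for all genes, with differences from -1.82 to 4.62. In that array 7 of the 15 were at least 2-fold below the mean of the other 3, against 2.99% of all genes. In the other direction 1 was at least 2-fold above, against 2.11%.

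**Figure D4:**
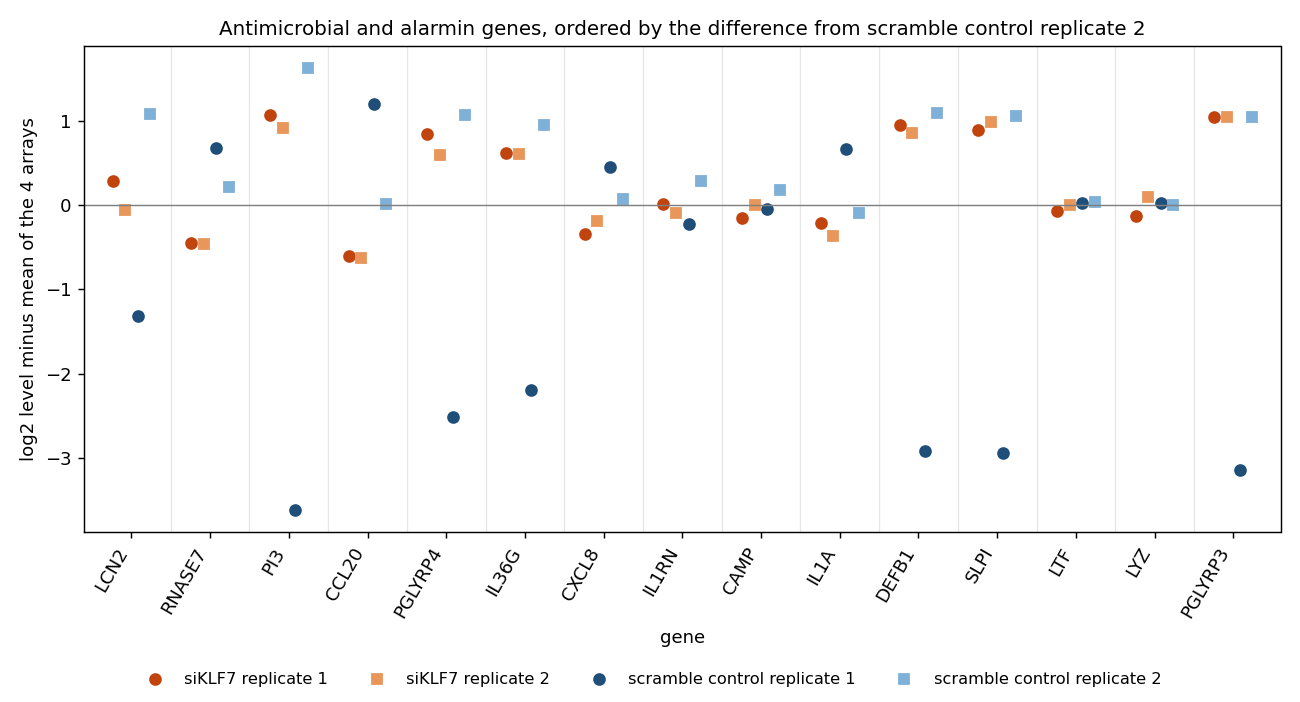
Log2 level of 15 antimicrobial and alarmin genes minus each gene's mean over the 4 arrays, ordered by the difference from scramble control replicate 2. LCN2 and PI3 place the siKLF7 arrays between the controls, and RNASE7 and CCL20 place them below both.

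Markers of the cells were read beside these results. Of 13 corneal and stratified epithelial genes measured, KRT5 and KRT14 had a signal of 8379 to 13575 on every array, and their summed signal over the 13 was 62783 and 64659 in the siKLF7 arrays, against 52922 in scramble control replicate 1 and 59413 in scramble control replicate 2. KRT3, a keratin of the corneal epithelium, had a signal of 1873 and 2461 in the siKLF7 arrays, against 0.00549 in scramble control replicate 1, in effect 0, and 1440.4 in scramble control replicate 2. KRT12, its partner keratin, had 2434 and 3136 in the siKLF7 arrays, against 67.7 in scramble control replicate 1 and 1569.7 in scramble control replicate 2. Both keratins were thus low in the array where S100A4, S100A7, S100A8, S100A9 and S100P were lowest, and high on the other 3. The labels call the cells undifferentiated. Other genes of the list went the other way. LAMB3 had a signal of 7511 there, against 2785 and 2807 in the siKLF7 arrays and 3483 in scramble control replicate 2. KRT19 was also highest there, at 3456, as were ITGB4 at 6033 and CDH1 at 3939. Of the 13 genes, 5 were at least 2-fold lower there than the mean of the other 3 arrays, against 2.99% of all genes. LAMB3, 1 of the 13, was at least 2-fold higher, against 2.11%. KRT5, KRT14, LAMB3, ITGB4 and CDH1 were named after their values were seen. KRT12 and KRT3 stood 0.81 and 0.57 above scramble control replicate 2 (log2). The 13 genes ran from -0.32 to 0.85 there, with a median of 0.12, beside -0.04 for all genes. The part of these differences in the S100 results was not tested.

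S100A8, S100A9 and S100A12 are also made by neutrophils and monocytes. The summed signal of 11 genes of those cells was 2138 and 2276 in the siKLF7 arrays, against 2795 in scramble control replicate 1 and 2489 in scramble control replicate 2. Most of the gap between the controls came from CD68, a lysosomal protein of macrophages, with 989.7 and 986 in the siKLF7 arrays, against 1419 in scramble control replicate 1 and 1130.4 in scramble control replicate 2. CD68 stood 0.52 below scramble control replicate 1 (log2). PTPRC, the pan-leukocyte marker, was at 25.5 to 31.8 on the 4 arrays, and was named after its values were seen. The part of such cells in the S100 results was not tested. None of the 11 was at least 2-fold apart in scramble control replicate 1 and none passed against scramble control replicate 2. The 11 fibroblast and keratocyte genes, cells that can hold S100A4, summed to 1125 and 1153 in the siKLF7 arrays, against 2624 in scramble control replicate 1 and 1163 in scramble control replicate 2. Of these 11, 3 were at least 2-fold higher in scramble control replicate 1, where S100A4 was at its lowest, against 2.11% of all genes. POSTN signal was 77.4 and 44.1 in the siKLF7 arrays, against 678 in scramble control replicate 1 and 25.4 in scramble control replicate 2. Its log2 difference was 0.86 against scramble control replicate 2 and -3.21 against scramble control replicate 1. LUM, with a signal of 25.1 to 63.5 on the 4 arrays, stood at 0.64 and 0.94 against scramble control replicates 2 and 1. For melanocyte and Schwann cell, Langerhans and dendritic cell, and vascular genes (5, 4 and 5 measured), none passed in any comparison. Since no detection calls were used here, a dim signal of these markers does not show whether a transcript was there.

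For the 3 of the 10 listed S100 genes whose log2 range reached 2, the genes with the most alike pattern were found by the root mean square difference of gene-centred log2 levels over the 4 arrays, among 13774 genes with a mean log2 level of at least 7. S100A4 was closest to TMPRSS4, BNIPL and OVOL1, at 0.07, 0.07 and 0.08. S100P was closest to NCCRP1, at 0.11, then to CCNA1 and TGM3, at 0.22 and 0.23. S100A7 had no match as close: MIR27A, LCN2 and MUC1 stood at 0.29, 0.33 and 0.34. NCCRP1 stood at log2 10.37 and 10.38 in the siKLF7 arrays, against 6.89 and 11.16 in scramble control replicates 1 and 2, and so lay between the controls as S100P did. TMPRSS4 had 10.86 and 10.95 in the siKLF7 arrays, against 7.72 and 10.69 in scramble control replicates 1 and 2, low in scramble control replicate 1 alone as S100A4 was.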

How the data were processed

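Expression in HCE cells was measured on 4 arrays. The authors deposited 1 table of signal intensity values on a linear scale, made in Expression Console 1.1.1 (Affymetrix) by PLIER 2.0 per the submitters' processing notes. Normalization between arrays and detection calls per feature are not stated in the sources used here. Over all features the median signal was 190.3, 185 (siKLF7 replicates 1 and 2), 187 and 194 (scramble control replicates 1 and 2), and the number of arrays limits the precision.

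Of 33297 features, 19460 carried 1 gene symbol in the platform annotation, 1754 several and 12083 none. Where a gene had several such features (769 genes), its brightest by mean signal was kept, and 18417 genes remained. All 10 S100 genes had 1 feature each. Values were analysed as log2(signal + 16), which understates differences of dim genes. Models over all genes used limma 3.58.1 in R 4.3.3 (lmFit, then eBayes with the prior following intensity), and p-values were adjusted by Benjamini-Hochberg with a threshold of 0.05, for siKLF7 against both controls and against each control array. The 3 fits had 2, 1 and 1 residual degrees of freedom and 2.63, 74.2 and 86.2 prior degrees of freedom. The 3-array fits took their spread from the siKLF7 arrays, on the assumption that the single control varies as they do, so the standard errors rest mostly on the prior.

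The S100 genes, the other lists and the tests were chosen with earlier results of these data known. Named are the 10 genes, KLF7, the other S100 genes measured (with values for those with a call or a log2 level of at least 8 in siKLF7 arrays), up to 4 genes of each other list by smallest p against scramble control replicate 2, a few partners fixed by name, and 3 genes of most alike pattern for each member with a log2 range of at least 2. Genes named beyond this are said to be so. The fits were repeated with quantile normalization or median centring, with pseudocounts of 1 and 32, with features averaged per gene, without the dimmest 25% or 50% of genes, with an untrended or robust prior, at a threshold of 0.10, with replicate number as a block, and without each array in turn. Promoter sequences and gene order came from RefSeq (GRCh38.p14). The array's genome build is not named in the labels or files used, so no other coordinates are printed. Figures were drawn with matplotlib 3.10.9.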

Additional observations from a re-analysis of the deposited data

How the results depend on the processing

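For the 10 S100 genes, 328 values under an alternative kept their sign and their side of the threshold, 10 newly passed it with the same sign and 8 changed sign. Of those 8, 1 came from quantile normalization and the others from leaving out an array. Leaving out arrays gave 0 to 4935 called genes and 0 to 5 called S100 genes in the 4-array comparison, and a KLF7 difference of -1.83 to -1.16. Signs turned for S100P (-1.04 to 3.39), S100A7 (-1.57 to 0.72), S100A9 (-0.16 to 1.55), S100A10 (-0.053 to 0.12) and S100A11 (-0.036 to 0.087). S100A10 turned with quantile normalization too (-0.025). S100A14 against scramble control replicate 1 (adjusted p = 0.051) had an adjusted p of 0.03 to 0.29 over the alternatives. Against scramble control replicate 2, 290 genes were called, 478 with quantile normalization and 172 with no trend. Of the 290, 163 were higher and 127 lower, against 276 and 143 with median centring and 142 and 144 once the dimmest 50% were left out. The cause was not tested. Without the dimmest 50% of genes 1 S100 gene was called there, S100P, because S100A7 fell outside the genes tested. S100P kept its call there under all 10 alternatives (highest adjusted p = 0.0004) and S100A7 under the 9 in which it was tested (8.1e-06).

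The replicate number as a block gave 0 called genes and 0 S100 genes with 4 arrays, like the fit without it. Deviations of same-numbered arrays correlated at -0.04 across genes, so the numbers were not taken to pair the arrays. In the 3-array fits no paired analysis was possible because the groups share 1 number. The number of arrays and the missing detection calls limit what dim genes can show.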

Other observations

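Other EF-hand proteins were read from a list as well. Of 23 listed calcium-binding EF-hand genes, 19 had a feature with 1 symbol, and 0 passed in limma with 4 arrays, as did 0% of all genes. The list median was 0.04 against scramble control replicate 2, 0.17 against scramble control replicate 1 and 0.05 with 4 arrays. For all genes it was -0.04, -0.06 and -0.05. CALML5, a calmodulin-like protein of differentiating keratinocytes, stood at log2 8.59 and 8.63 in the siKLF7 arrays, against 5.90 and 9.02 in scramble control replicates 1 and 2. Its siKLF7 values lay between the controls, with a difference of -0.40 from scramble control replicate 2 that did not pass (SE 0.16, limma adjusted p = 0.28). NUCB2, NUCB1 and CALB1 stood at 0.49, 0.26 and 0.38 against scramble control replicate 2 and did not pass there. Against scramble control replicate 1 they stood at 0.27, -0.68 and 0.17.

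Among the partners of S100 proteins, ANXA6, an annexin that was picked after its values were seen, moved the opposite way to S100A4 and S100P in scramble control replicate 1. It stood at log2 8.49 and 8.67 in the siKLF7 arrays, against 12.89 and 8.70 in scramble control replicates 1 and 2. ANXA6 fell by 4.31 against scramble control replicate 1 (limma adjusted p = 2.8e-44) and differed by -0.12 from scramble control replicate 2 (limma adjusted p = 0.82).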
